A study of Rattus norvegicus with 6 samples.

Results

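Muscle calcium handling genes make and use the calcium signal that couples excitation of a muscle fibre to its contraction. The set held 8 genes, chosen by symbol: the sarcoplasmic reticulum calcium pumps Atp2a1 and Atp2a2, the release channel Ryr1, the store proteins Casq1 and Casq2, the cytosolic calcium buffer Pvalb, the voltage sensor Cacna1s and the pump regulator Sln. Of these, 2 genes, Atp2a2 and Ryr1, had an annotated probe, each with 1 probe, among 12589 named genes. The other 6 had no probe of that symbol in the annotation used and are not analysed here.

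In a muscle fibre, the voltage sensor of the T-tubule membrane opens the ryanodine receptor, calcium leaves the sarcoplasmic reticulum and binds troponin C, and the fibre contracts. Pumps of the Atp2a family then return calcium to the reticulum, and the fibre relaxes. Ryr1 encodes the ryanodine receptor of skeletal muscle. Atp2a2 encodes the pump of slow skeletal and cardiac muscle and, as another splice form, a pump of the endoplasmic reticulum in most cell types. It is therefore not a marker of muscle alone, and the files do not say which splice form its probe reads.

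The series compared alcohol-fed and pair-fed Sprague-Dawley rats, with and without a fracture, on 2-colour arrays. The 4 groups were alcohol-fed rats with a fracture, alcohol-fed rats without one, pair-fed rats with a fracture and pair-fed rats without one, called fractured alcohol-fed, unfractured alcohol-fed, fractured pair-fed and unfractured pair-fed below. All were weanlings of 4 weeks that spent 4 weeks on a liquid Lieber and DeCarli diet, which held ethanol for the alcohol-fed groups only. The fracture was a closed break in the middle of the shaft over a steel pin, and tissue of the right hind-limb was taken after 3 days, labelled as callus in fractured and as non-fracture callus in unfractured rats. The labels do not say whether unfractured rats were pinned, which sex the rats had, or whether the 3 numbered samples of a group were separate rats or pools, and p-values therefore cover only the spread of these samples, which may be technical. Each group was hybridised against every other, giving 6 pairings and, with dye swaps, 12 arrays, with no numbered sample on more than 1 pairing.

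The promoter windows of the 2 measured genes are shown because both genes had ratios of the same sign on every pairing. They come from RefSeq on the rat build GRCr8 and run from 250 bases before to 50 bases after the annotated start, 5′ to 3′ on the strand of the gene. Atp2a2 lies on the plus strand, with its window at chr12:39733269-39733568, and Ryr1 on the minus strand, with its window at chr1:93551256-93551555. Capitals mark the E-box (CANNTG), the motif bound by myogenic and many other basic helix-loop-helix factors.
Atp2a2: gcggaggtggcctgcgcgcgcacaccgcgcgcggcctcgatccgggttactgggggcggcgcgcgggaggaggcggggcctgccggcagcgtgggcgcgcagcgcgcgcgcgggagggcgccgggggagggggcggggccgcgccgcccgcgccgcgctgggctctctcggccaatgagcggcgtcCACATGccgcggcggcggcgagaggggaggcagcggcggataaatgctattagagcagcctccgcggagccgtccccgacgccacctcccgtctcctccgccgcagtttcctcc
Ryr1: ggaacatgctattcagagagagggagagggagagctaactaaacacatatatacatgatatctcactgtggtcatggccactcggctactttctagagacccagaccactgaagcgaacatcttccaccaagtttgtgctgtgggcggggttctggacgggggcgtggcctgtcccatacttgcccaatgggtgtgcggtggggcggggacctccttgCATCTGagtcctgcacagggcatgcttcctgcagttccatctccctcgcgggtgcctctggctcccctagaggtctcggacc
The Atp2a2 window was 79.0% G and C with 52 CpG dinucleotides, a CpG number that 99.6% of 33469 rat promoter windows did not exceed. The Ryr1 window was 57.3% G and C with 10 CpG, near the median of 51.7% and 7 over all windows. Each window held 1 E-box, CACATG starting at -64 in Atp2a2 and CATCTG starting at -32 in Ryr1, counted from the annotated start, and 72.1% of all windows held at least 1. The GC box (GGGCGG, read on both strands) occurred 3 times in Atp2a2 and 2 times in Ryr1, against 33.1% of all windows with at least 1. None of TATAAA, the MEF2 site and the CArG box was found in either window, and 14.2%, 3.29% and 1.64% of all windows held them.

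All values are log ratios. The sources used here do not give their log base, and no folds were computed. Each deposited ratio was read as the first-named over the second-named group of its title and then turned, where needed, so that an alcohol-fed or fractured group stands on top. This reading is an assumption. The deposited columns of fractured pair-fed against fractured alcohol-fed and of fractured pair-fed against unfractured alcohol-fed share a group on the same side, yet their correlation over 23549 rows was -0.621, so the direction of single columns is not settled. Were all columns reversed, all signs given here would turn together. Results with single columns turned are given at the end.

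Atp2a2 was positive on all 6 pairings. Its log ratio was 2.97 for fractured alcohol-fed over unfractured alcohol-fed and 0.67 for fractured pair-fed over unfractured pair-fed. It was 0.20 for fractured alcohol-fed over fractured pair-fed and 0.96 for unfractured alcohol-fed over unfractured pair-fed. On the remaining pairings it was 1.87 for fractured alcohol-fed over unfractured pair-fed and 0.30 for fractured pair-fed over unfractured alcohol-fed. The highest ratios were thus those of alcohol-fed fractured against unfractured rats of either diet, while both fractured groups differed little when hybridised directly. In absolute size, 99.96% of all rows lay at or below Atp2a2 on the pairing of both alcohol-fed groups, but only 45.98% on the pairing of both fractured groups.

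Ryr1 was also positive on all 6 pairings, within a narrower range. Its log ratio was 1.95 for fractured alcohol-fed over unfractured alcohol-fed and 0.54 for fractured pair-fed over unfractured pair-fed. The ratio was 0.67 for fractured alcohol-fed over fractured pair-fed and 0.61 for unfractured alcohol-fed over unfractured pair-fed. It reached 0.83 for fractured alcohol-fed over unfractured pair-fed and 0.44 for fractured pair-fed over unfractured alcohol-fed. The pairing of the alcohol-fed groups stood above the other 5, which ran from 0.44 to 0.83. In absolute size, 99.33% of all rows lay at or below Ryr1 on that pairing, and 81.51% to 96.42% on the other 5. Of all rows, 6.21% were positive on all 6 pairings as turned here and 6.11% were negative on all 6. Because the arrays give ratios of bulk tissue, fewer cells of a type and less RNA per cell cannot be told apart.

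**Figure D1:**
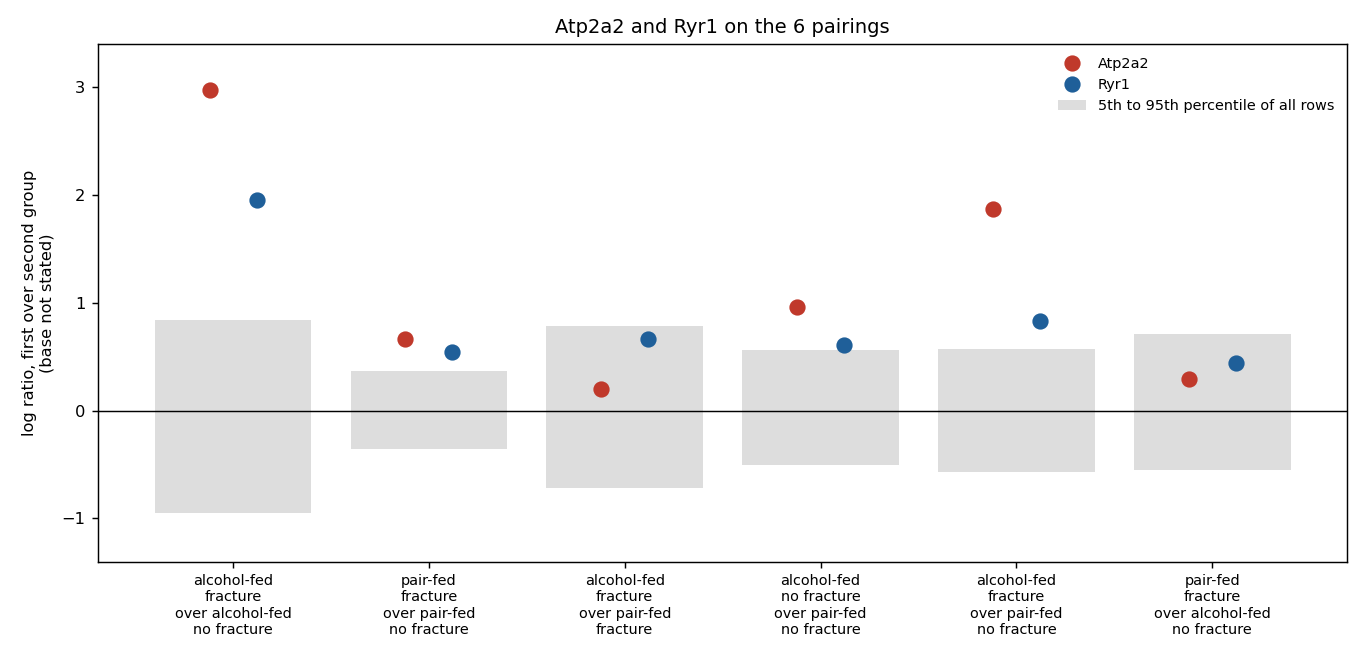
Log ratios (y axis, base not stated) of Atp2a2 (red) and Ryr1 (blue) on each of the 6 pairings (x axis, first over second group); grey bands run from the 5th to the 95th percentile of all 23549 rows of that pairing. Every point is above 0, Atp2a2 reaches 2.97 and Ryr1 1.95 on the pairing of both alcohol-fed groups, and on the pairing of both fractured groups both genes lie inside the band.

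Fitted together, the 6 ratios order the 4 groups in the same way for both genes. Relative to the mean of the groups, Atp2a2 stood at 1.26 in fractured alcohol-fed, 0.19 in fractured pair-fed, -0.58 in unfractured alcohol-fed and -0.87 in unfractured pair-fed (SE 0.30 each). Ryr1 stood at 0.86, 0.08, -0.45 and -0.50 in the same groups (SE 0.19 each). The 95% interval of the difference between the highest and the lowest group left out 0 for both genes, but its adjusted p was 0.144 in limma, and no neighbours in the order were shown to differ after adjustment. Both unfractured groups were closest to each other. These positions rest on the titles' signs.

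Under the titles' signs, fracture in alcohol-fed rats gave the largest values among the comparisons within a diet or a fracture state. The fitted difference, fractured alcohol-fed minus unfractured alcohol-fed, was 1.84 ± 0.49 (SE) for Atp2a2, with a 95% interval of 0.67 to 3.00. For Ryr1 it was 1.31 ± 0.31, with an interval of 0.57 to 2.05. Neither passed the threshold of 0.05 in limma with Benjamini-Hochberg adjustment over all rows (adjusted p = 0.0995 for Atp2a2 and 0.0718 for Ryr1). The unadjusted p was 0.00775 for Atp2a2 and 0.00431 for Ryr1. Thus 0 of 2 genes were called, where 4.24% of all rows were called, 0.828% as positive (195 rows) and 3.41% as negative (804 rows), and 18.9% of rows had an unadjusted p under 0.05.

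Both values leaned on the direct pairing. In the fit the direct pairing weighs as much as the indirect paths through the other groups together. For Atp2a2 the direct value was 2.97, against 0.50 through fractured pair-fed and 0.91 through unfractured pair-fed. For Ryr1 the direct value was 1.95, against 1.10 and 0.22 on the same paths. The paths had 1 sign and differed in size. Without the direct pairing the fitted difference was 0.70 for Atp2a2 and 0.66 for Ryr1. Leaving out the pairing of both fractured groups gave Atp2a2 a difference of 2.27 and an adjusted p of 0.036 in limma. Leaving out the pairing of unfractured pair-fed and fractured alcohol-fed gave Ryr1 a difference of 1.57 and an adjusted p of 0.0496 in limma.

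The effect of fracture in pair-fed rats had smaller fitted values in both genes, with intervals that included 0. It was 1.06 ± 0.49 for Atp2a2 (95% interval -0.10 to 2.23) and 0.58 ± 0.31 for Ryr1 (-0.16 to 1.31), with an adjusted p of 1.0 for both in limma. Over all rows, 0 were called in this comparison (0.0%), and 447 rows (1.9%) had an unadjusted p under 0.05. For Atp2a2 the direct pairing gave 0.67, below the 1.67 through fractured alcohol-fed and the 1.26 through unfractured alcohol-fed. For Ryr1 the direct pairing gave 0.54, between 0.16 and 1.05 on those paths.

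Whether fracture acted differently on the 2 diets is asked by the interaction. The fracture effect in alcohol-fed minus that in pair-fed rats was 0.77 ± 0.69 for Atp2a2 (95% interval -0.88 to 2.42, adjusted p = 0.755 in limma). It was 0.73 ± 0.44 for Ryr1 (-0.31 to 1.78, adjusted p = 0.629 in limma). Of all rows, 0 (0.0%) passed the threshold and 2492 (10.6%) had an unadjusted p under 0.05. The intervals cover 0 as well as differences larger than the fracture effect in pair-fed rats.

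The effect of alcohol in fractured rats is the comparison that the design text of the series names as its interest. Fractured alcohol-fed minus fractured pair-fed was 1.07 ± 0.49 for Atp2a2 (95% interval -0.10 to 2.24) and 0.78 ± 0.31 for Ryr1 (0.05 to 1.52). The adjusted p in limma was 0.482 for Atp2a2 and 0.4 for Ryr1, so 0 of 2 genes were called, as were 0 of all rows (0.0%). Unadjusted p-values were 0.0665 and 0.0404, and 2712 rows (11.5%) had one under 0.05. The direct pairing of Atp2a2 gave only 0.20, whereas the path through unfractured alcohol-fed gave 2.68 and that through unfractured pair-fed 1.20. Ryr1 was 0.67 directly, 1.51 through unfractured alcohol-fed and 0.29 through unfractured pair-fed. For Atp2a2, most of the fitted value thus came from pairings other than the one that compared these groups.

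In unfractured rats the effect of alcohol was near 0 in the fit. Unfractured alcohol-fed minus unfractured pair-fed was 0.30 ± 0.49 for Atp2a2 (95% interval -0.87 to 1.47) and 0.05 ± 0.31 for Ryr1 (-0.69 to 0.79), with an adjusted p of 0.999 for both in limma. Across all rows 0 were called (0.0%) and 819 (3.48%) had an unadjusted p under 0.05. The paths disagreed in sign: Atp2a2 was 0.96 directly, -1.10 through fractured alcohol-fed and 0.37 through fractured pair-fed. Ryr1 was 0.61 directly, -1.12 through fractured alcohol-fed and 0.11 through fractured pair-fed. Without the direct pairing both differences were negative, -0.37 for Atp2a2 and -0.51 for Ryr1.

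**Figure D2:**
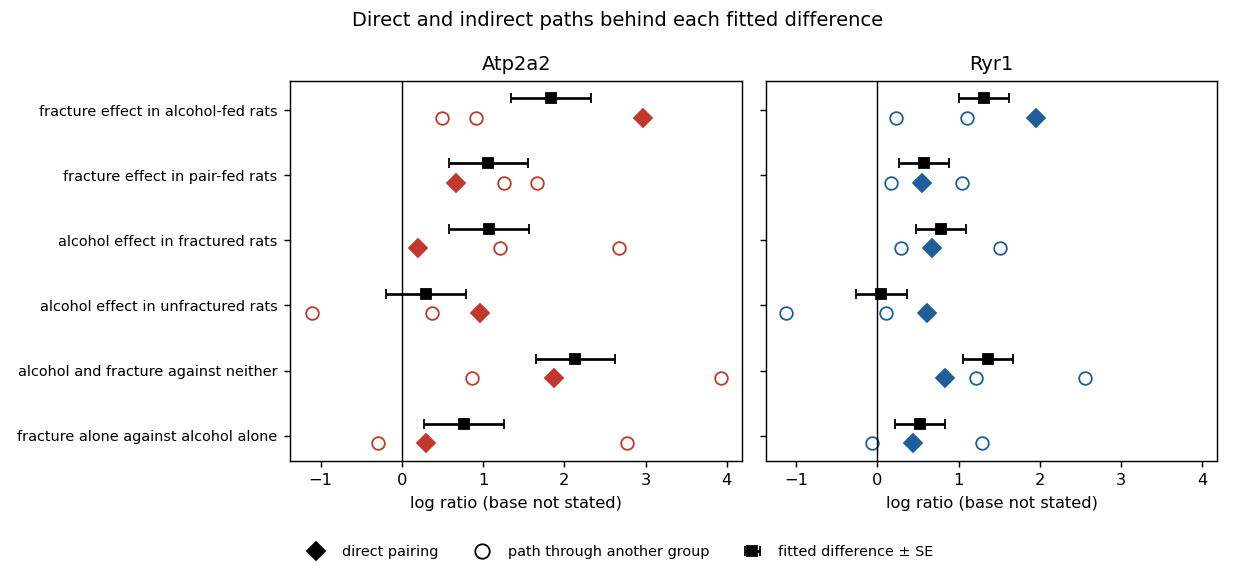
Fitted differences ± SE (black squares) of Atp2a2 (left) and Ryr1 (right) for 6 group comparisons (rows), with the direct pairing (diamonds) and the paths through another group (open circles) behind each, on the log-ratio scale (x axis, base not stated). In the fracture effect of alcohol-fed rats the direct value lies right of both paths, and in the alcohol effect of unfractured rats 1 path of each gene is below -1.

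Alcohol and fracture together, set against neither, gave the largest fitted differences of both genes under the titles' signs. Fractured alcohol-fed minus unfractured pair-fed was 2.14 ± 0.49 for Atp2a2 (95% interval 0.97 to 3.30) and 1.36 ± 0.31 for Ryr1 (0.62 to 2.10), with an adjusted p of 0.144 for both in limma. Here 0 rows were called (0.0%) and 3505 (14.9%) had an unadjusted p under 0.05. Fracture alone minus alcohol alone was 0.77 ± 0.49 for Atp2a2 (-0.40 to 1.93) and 0.52 ± 0.31 for Ryr1 (-0.21 to 1.26), with an adjusted p of 1.0 for both in limma, 0 rows called (0.0%) and 643 rows (2.73%) under an unadjusted p of 0.05.

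Among the other genes of calcium handling, 53 of 62 listed genes were measured, and most lay near 0 in every comparison. In the fracture effect of alcohol-fed rats 33 of 53 were positive, with a median of 0.08 against 0.02 over all rows. Of these 53 genes, 1 was called there, as positive, beside 0.828% of all rows, and 0 were called in the alcohol effect of fractured or unfractured rats, in the fracture effect of pair-fed rats or in the interaction. In the alcohol effect of fractured rats 31 of 53 were positive, with a median of 0.04 against 0.02 over all rows. Their medians were 0.02 in the alcohol effect of unfractured rats, 0.01 in the fracture effect of pair-fed rats and -0.01 in the interaction. Positive on all 6 pairings were 6 of the 53, namely Cacng1, Dysf, Hrc, Stim2, Ppp3r1 and Tnnc1, and negative on all 6 were Cacna1c, Atp2a3 and S100a1. The share of all rows was 6.21% for positive and 6.11% for negative. For Stim2, Ppp3r1 and Atp2a3 this holds for the average over probes, as 1 probe of each had the other sign on at least 1 pairing. For Cacna1c it holds for the average only, as each of its 3 probes was positive on at least 1 pairing.

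Genes of the T-tubule and its junction with the reticulum carried the single call. Cacng1, the gamma subunit of the skeletal muscle calcium channel, rose with fracture in alcohol-fed rats by 1.65 ± 0.29 (adjusted p = 0.0361 in limma). Its ratios were 2.00 for fractured alcohol-fed over unfractured alcohol-fed, 1.50 for fractured alcohol-fed over fractured pair-fed, 0.95 for fractured alcohol-fed over unfractured pair-fed, 0.65 for fractured pair-fed over unfractured pair-fed, 0.52 for fractured pair-fed over unfractured alcohol-fed and 0.36 for unfractured alcohol-fed over unfractured pair-fed. The path through fractured pair-fed gave 2.02, close to the direct value, and that through unfractured pair-fed 0.59. The call was lost when the pairing of fractured pair-fed and unfractured pair-fed was left out (1.65, adjusted p = 0.0915 in limma), as it was without that of fractured pair-fed and unfractured alcohol-fed (1.62, 0.0834) and without the direct pairing (1.31, 0.342), with columns scaled to 1 spread (1.30, 0.0512) and without moderated variances (1.65, 0.255).

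Over the whole role, values were spread on both sides of 0. In the fracture effect of alcohol-fed rats 9 of the 11 measured were positive with a median of 0.09, 1 called. In that of pair-fed rats 8 of 11 were positive, with a median of 0.26 and none called. Dysf, the membrane repair protein dysferlin, was 0.58 ± 0.15 in the fracture effect of pair-fed rats and 0.49 ± 0.15 in the alcohol effect of unfractured rats. Stac3, an adaptor that links the voltage sensor to release, was 0.73 ± 0.32 in the fracture effect of pair-fed rats, and Cav3, the muscle caveolin, was -0.61 ± 0.18. None of these passed the threshold (adjusted p = 0.999 or 1.0 in limma). Jph1, which holds the T-tubule and the reticulum together, was 0.47 ± 0.19, and the channel subunit Cacna2d1 0.37 ± 0.19, in the alcohol effect of unfractured rats (adjusted p = 0.999 in limma).

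Release channels and store proteins included Hrc, whose profile was among the 3 most like that of each main gene. Hrc, a calcium-binding protein of the reticulum lumen, had ratios of 2.17 for fractured alcohol-fed over unfractured alcohol-fed, 1.10 for fractured alcohol-fed over unfractured pair-fed and 0.80 for unfractured alcohol-fed over unfractured pair-fed. It was 0.53 for fractured alcohol-fed over fractured pair-fed, 0.38 for fractured pair-fed over unfractured pair-fed and 0.32 for fractured pair-fed over unfractured alcohol-fed. As in Atp2a2 and Ryr1, the pairing of both alcohol-fed groups was the highest, which is part of the likeness for which Hrc was picked. Its fracture effect in alcohol-fed rats was 1.37 ± 0.36 (adjusted p = 0.0941 in limma), with 2.17 directly and 0.85 and 0.30 on the indirect paths. Of the 12 measured genes of this role, 8 were positive in that comparison, with a median of 0.08. Srl, the luminal protein sarcalumenin, was 0.57 ± 0.16 in the alcohol effect of fractured rats (adjusted p = 0.237 in limma). Fkbp1a, a binding protein of the release channel, was -0.54 ± 0.17 in the fracture effect of pair-fed rats (adjusted p = 1.0 in limma). The probes of Trdn, which anchors the store proteins to the release channel, disagreed, with 0.44 and -0.91 on the pairing of both alcohol-fed groups.

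Pumps and exchangers other than Atp2a2 lay on different sides of 0 in different comparisons. In the fracture effect of alcohol-fed rats 7 of 9 measured genes were negative, with a median of -0.13 and none called, whereas in the alcohol effect of unfractured rats 7 of 9 were positive, with a median of 0.08 and none called. Atp2a3, the third gene of the pump family and known mainly from blood and epithelial cells, was negative on all 6 pairings, the opposite of Atp2a2. Its ratio was -1.59 for fractured alcohol-fed over unfractured alcohol-fed, and its fracture effect in alcohol-fed rats was -1.18 ± 0.27 (adjusted p = 0.0682 in limma). Its 2 probes gave -1.66 and -1.51 on that pairing but 0.03 and -0.69 for fractured pair-fed over unfractured pair-fed. Slc8a3, a sodium-calcium exchanger, was -0.59 ± 0.19 in the alcohol effect of fractured rats (adjusted p = 0.32 in limma).

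Store-operated entry genes and calcium sensors held no call. Of 6 measured genes of store-operated entry (Stim1, Stim2, Orai1, Orai2, Orai3 and Trpc1), 4 were positive in the fracture effect of alcohol-fed rats, with a median of 0.22. The smallest p among them was that of Trpc1, a cation channel subunit, at -0.65 ± 0.15 (adjusted p = 0.0722 in limma). Of 15 measured sensors and effectors, 10 were positive, with a median of 0.13. Phkg1, the catalytic subunit of muscle phosphorylase kinase, was the most negative calcium gene of this comparison at -1.75 ± 0.38 (adjusted p = 0.0586 in limma). It was -1.47 ± 0.38 in the alcohol effect of fractured rats (0.216) and -1.95 ± 0.54 in the interaction (0.251). Its ratio was -2.27 for fractured alcohol-fed over fractured pair-fed, yet 0.00 for fractured pair-fed over unfractured pair-fed.

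**Figure D3:**
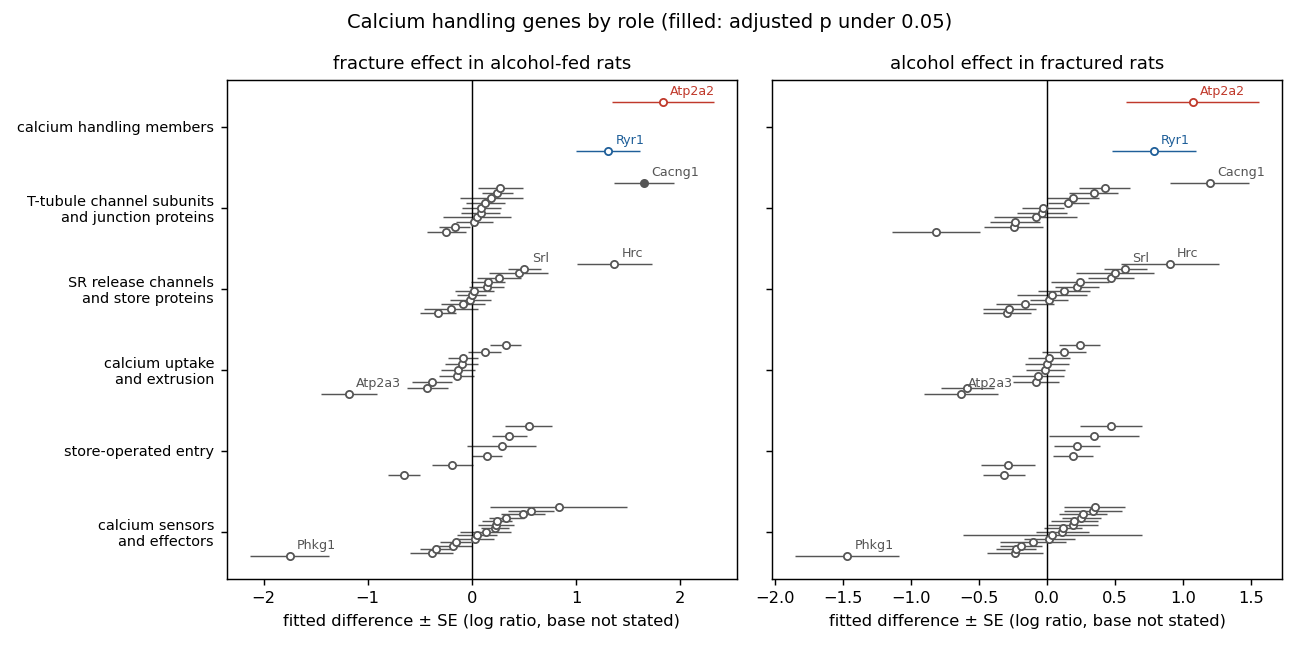
Fitted differences ± SE (x axis, log ratio, base not stated) of the 2 main genes and 53 other calcium handling genes, grouped by role (y axis), for the fracture effect in alcohol-fed rats (left) and the alcohol effect in fractured rats (right); filled points have an adjusted p under 0.05. Cacng1 at 1.65 is the single filled point, Atp2a2, Ryr1 and Hrc stand right of most genes, and Phkg1 and Atp2a3 stand left.

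Likeness of profile was measured as the uncentred correlation of a gene's 6 ratios with those of each main gene, over genes whose root mean square ratio was at least 0.5 of that of the main gene. It does not depend on which way a column runs. The most like genes for Atp2a2, out of 727 compared, were Anxa7, a calcium-dependent membrane-binding annexin, at 0.994, Hrc at 0.983 and the folate receptor Folr2 at 0.975. For Ryr1, out of 2124 compared, they were Ank1, an ankyrin with a form in the sarcoplasmic reticulum, at 0.993, the lysosomal peptidase Tpp1 at 0.989 and Hrc at 0.988. Atp2a2 and Ryr1 had a likeness of 0.956 to each other, which was rank 13 for Atp2a2 and rank 37 for Ryr1, so other genes were more like each. Atp2a3 had -0.874 to Atp2a2 and -0.971 to Ryr1. These are descriptions over 6 pairings, each group being part of 3 of them. Folr2 was not positive throughout: it was -0.11 for fractured alcohol-fed over fractured pair-fed and -0.02 for fractured pair-fed over unfractured pair-fed.

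Several markers of skeletal muscle rose in the comparison of fractured and unfractured alcohol-fed rats under the titles' signs. Of 6 measured genes of the fast fibre sarcomere, 5 were positive in the fracture effect of alcohol-fed rats, with a median of 1.05, and 3 rose, where 0.828% of all rows were called positive and 3.41% negative. Among them were Mybpc2, fast myosin-binding protein C, at 1.73 ± 0.24, and the fast light chain Myl11 at 1.59 ± 0.22 (adjusted p = 0.028 each in limma). All 5 measured genes of the slow fibre sarcomere were positive, with a median of 0.28 and none called, Tnnt1 at 1.44 ± 0.46 (adjusted p = 0.158 in limma) and Myl3 at 0.61 ± 0.44 (0.519). Of 10 shared muscle genes, 8 were positive with a median of 1.22, 2 rose and 1 fell. The heart and muscle cytochrome oxidase subunit Cox6a2 rose by 1.91 ± 0.26 (adjusted p = 0.028 in limma), and the muscle enolase Eno3 fell by 1.18 ± 0.21 on the log-ratio scale (0.0376). The calls of these 4 genes were lost with columns turned (adjusted p = 0.0833 to 0.669 in limma), and also without the pairing of the pair-fed groups, of fractured pair-fed and unfractured alcohol-fed, or of the alcohol-fed groups (0.0641 to 0.342), and without moderated variances (0.243 to 0.249). Eno3 also missed the threshold without the pairing of the fractured groups (0.0542) and with columns scaled to 1 spread (0.0554).

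In the alcohol effect of fractured rats the medians of these lists were 0.90 for fast fibre, 0.46 for slow fibre and 0.83 for shared muscle genes, and in the fracture effect of pair-fed rats 0.54, 0.86 and 0.74. Under the titles' signs, positive on all 6 pairings were 4 of 6 fast fibre, 1 of 5 slow fibre and 8 of 10 shared muscle genes, against 6.21% of all rows. The part of muscle content in the ratios of Atp2a2 and Ryr1 was not tested. Ratios give no level, so it cannot be read from them how much muscle RNA any group held, and the labelled tissue could not be checked against its markers.

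Markers of other cells gave the following medians in the fracture effect of alcohol-fed rats, where 0.828% of all rows were called positive and 3.41% negative. All calls of this comparison, these included, were lost with columns turned. Cardiac muscle stood at 0.05 (7 of 7 measured, none called) and smooth muscle and pericytes at 0.11 (3 of 8, 1 rose). Erythroid genes stood at -0.77 (7 of 9, 2 fell), neutrophil genes at -1.14 (4 of 7, 1 fell) and B lymphocyte genes at -0.62 (3 of 6, none called). Chondrocyte genes stood at -0.41 (5 of 7, 1 fell), osteoblast genes at 0.00 (6 of 7, none called), adipocyte genes at 0.04 (5 of 7, none called), macrophage genes at 0.26 (6 of 7, 2 rose) and nerve and Schwann cell genes at -0.04 (5 of 7, none called). Erythroid, neutrophil, B lymphocyte and chondrocyte medians thus lay below 0 where the skeletal muscle medians lay above it.

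**Figure D4:**
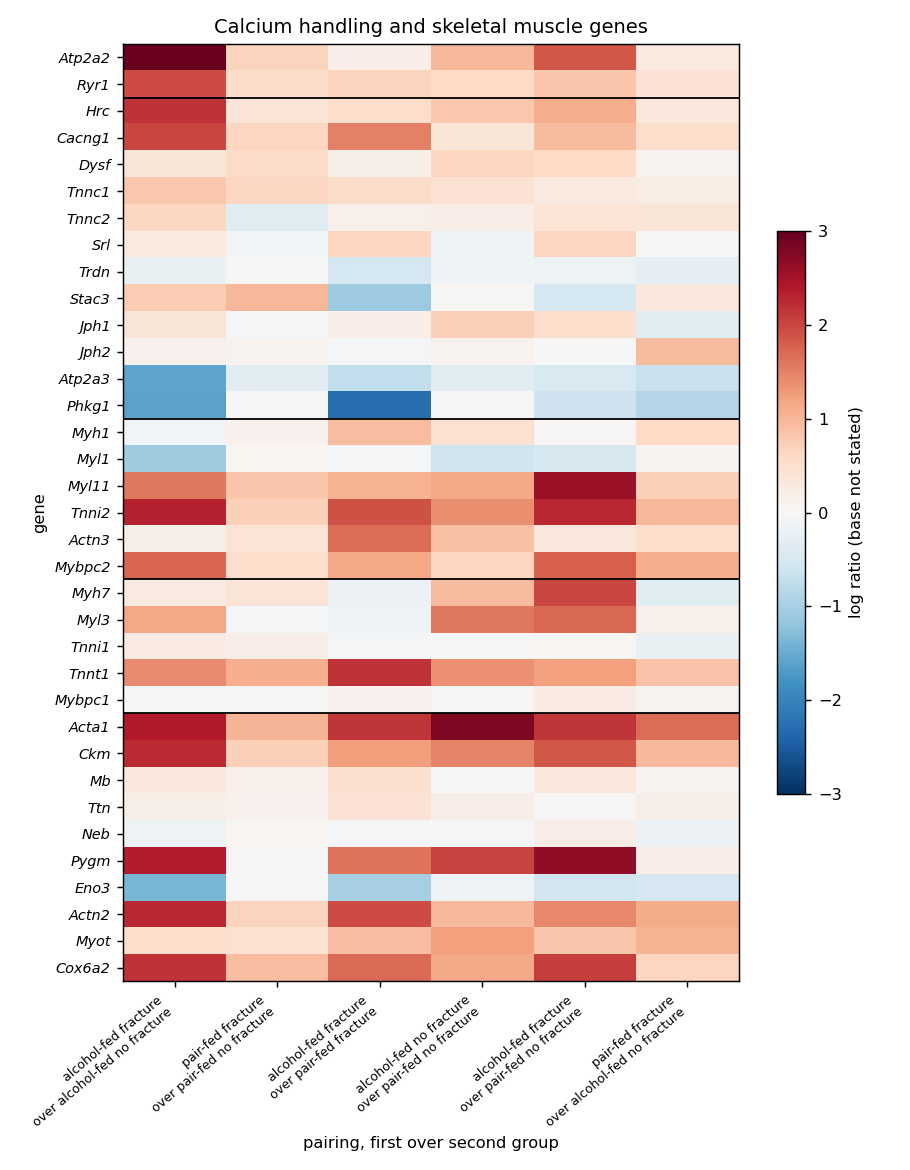
Log ratios (colour, base not stated) of the 2 main genes, 12 other calcium genes, and fast fibre, slow fibre and shared skeletal muscle genes (rows, blocks parted by lines) on the 6 pairings (columns, first over second group). The other calcium genes were picked after their values were seen; Hrc and Cacng1 are red throughout as are Atp2a2 and Ryr1, while Trdn, Stac3, Atp2a3 and Phkg1 are blue on some or all pairings.

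Turning columns that hold fractured pair-fed rats changed the sizes of both genes' differences and, for Ryr1, some signs. No other columns were turned. The signs that Atp2a2 kept therefore cover these turns only. Under other turns the differences of both genes were not fitted, and signs of Atp2a2 can change there too. Over all rows, the fit under the titles' signs left a share of 0.403 of the squared ratios unexplained, the seventh smallest share among 32 distinct sign patterns. The smallest share was 0.293, the next 0.299 and the largest 0.689, and gene values under the pattern of 0.299 were not fitted. With 3 residual degrees of freedom for 6 pairings, the fit takes up part of the squared ratios under any signs. For Atp2a2 alone the titles' signs left 0.212 (smallest 0.161), and for Ryr1 0.177 (smallest 0.0699). With the column of fractured pair-fed against unfractured alcohol-fed turned, the fracture effect in alcohol-fed rats was 1.69 for Atp2a2 and 1.09 for Ryr1, and the alcohol effect in fractured rats 1.22 and 1.00. With the column of fractured pair-fed against fractured alcohol-fed turned instead, the fracture effect was 1.74 and 0.97, and the alcohol effect 0.87 for Atp2a2 and 0.12 for Ryr1. With the columns of fractured pair-fed against both unfractured groups turned, the pattern of the smallest share, the fracture effect in pair-fed rats was 0.25 for Atp2a2 and -0.19 for Ryr1, while that in alcohol-fed rats was 1.69 and 1.09. The alcohol effect in fractured rats was then 1.55 for Atp2a2 and 1.28 for Ryr1 (adjusted p = 0.188 and 0.0954 in limma), so that for Ryr1 it was larger than the fracture effect in alcohol-fed rats. Alcohol and fracture against neither was 1.80 for Atp2a2 and 1.09 for Ryr1 under that pattern. The fracture effect in alcohol-fed rats was positive for both genes under these 3 turns, and neither gene passed the threshold in it under any of them (adjusted p from 0.198 to 0.643 in limma). None of these turns touched the direct pairing of that effect, so its sign had little room to change. Cacng1 kept a positive value there, 0.90 to 1.39, with an adjusted p of 0.105 to 0.661 in limma.

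**Figure D5:**
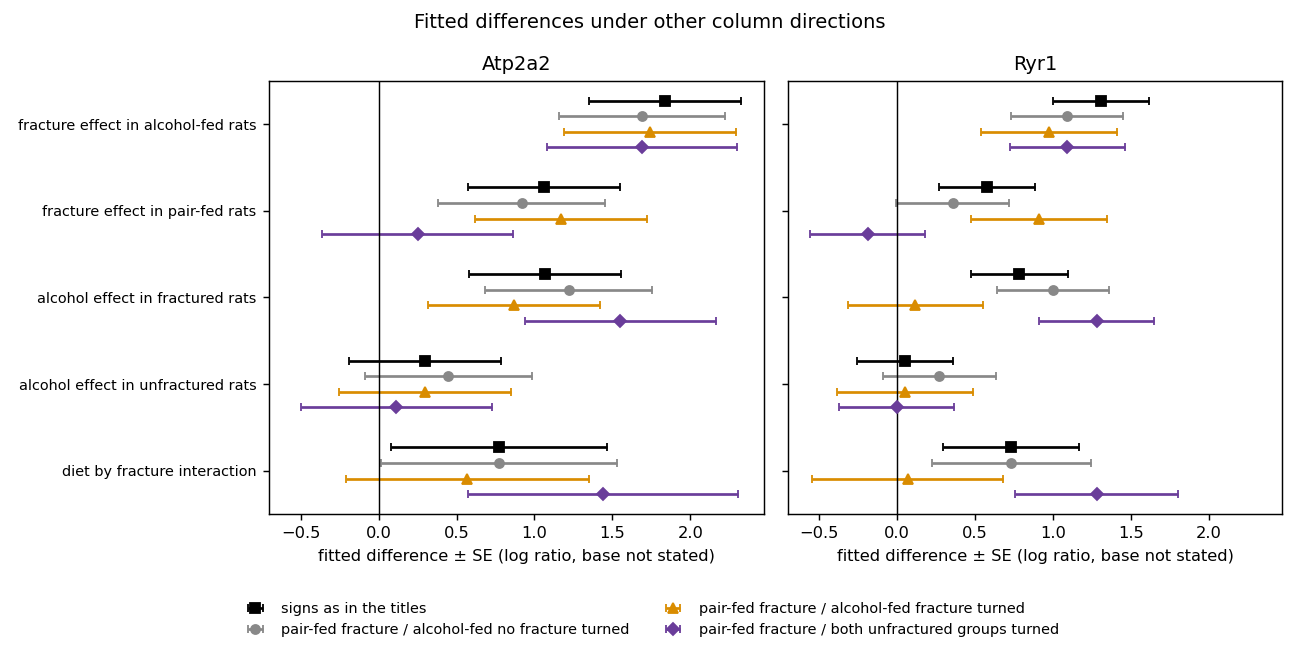
Fitted differences ± SE (x axis, log ratio, base not stated) of Atp2a2 (left) and Ryr1 (right) for 5 comparisons (rows), with the signs of the titles (black squares) and with 1 or 2 columns turned (grey circles, orange triangles, purple diamonds). The fracture effect in alcohol-fed rats, whose direct pairing was not turned in any setting, lies right of 0 under each. The fracture effect in pair-fed rats drops to 0.25 for Atp2a2 and -0.19 for Ryr1 with the columns against both unfractured groups turned.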

How the data were processed

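Total RNA of the milled fracture region was amplified and labelled with Cy3 or Cy5, per the labels' protocols. The authors deposited 1 log ratio per probe and pairing, each apparently joining an array and its dye swap. The sources used here give no scanner, background correction, normalization, filter, log base or numerator; every deposited column has a mean of 0 and no missing value. Column medians, turned as in the report, ran from -0.0481 to 0.0233 and standard deviations over probes from 0.252 to 0.573. Dim probes stayed in, since intensities were not used here.

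From 26503 probes 22 control spots were removed. The platform annotation named 15521 of the remaining 26481 probes; 3638 symbols were updated through RefSeq and 59 could not be matched. Probes of one gene were averaged, leaving 23549 rows. limma 3.58.1 in R 4.3.3 fitted all 6 pairings on +1 and -1 group terms, with 3 residual and 3.66 prior degrees of freedom; p-values were two-sided and adjusted by Benjamini-Hochberg across the 23549 rows. The fit was tested on data simulated under the titles' signs, which cannot test the direction of columns.

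Members, lists, alternatives and column orientation were chosen with earlier results of these data known. The comparisons of alcohol and fracture against neither, and of fracture alone against alcohol alone, were added after the data were seen. Other calcium genes were named if called or, up to 4 per comparison, by smallest p; per main gene the 3 most like genes were named among those with at least 0.5 of its root mean square; marker lists gave their 2 smallest p. Hrc's values and genes with 1 sign on all pairings were named after their values were seen. Alternatives turned columns, scaled or centred columns, kept probes apart, left out each pairing or dropped variance moderation.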

Additional observations from a re-analysis of the deposited data

How the results depend on the processing

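The small number of arrays limits every value, and without intensities the effect of dim probes is not known. Over 13 alternatives for each of 14 fitted values of Atp2a2 and Ryr1, 174 of 182 results kept their sign and their side of the threshold. The other 8 are given here or in the report. None of the 14 was called under the titles' signs, so keeping the side of the threshold means staying uncalled. Keeping probes apart or dropping moderation could not change a sign, because each gene has 1 probe and moderation leaves fitted values as they are. Leaving out 1 pairing at a time gave 0.702 to 2.27 for Atp2a2 and 0.664 to 1.59 for Ryr1 in the fracture effect of alcohol-fed rats, -0.366 to 0.866 and -0.507 to 0.373 in the alcohol effect of unfractured rats, and -0.363 to 1.64 and 0.0892 to 1.29 in the interaction. With the columns of fractured pair-fed against both unfractured groups turned, chosen after seeing the data, Ryr1 reversed to -0.00289 in the alcohol effect of unfractured rats, -0.189 in the fracture effect of pair-fed rats and -0.186 in fracture alone against alcohol alone; the fracture effect of pair-fed rats reversed too for Dysf (-0.0521), Cav3 (0.288), Fkbp1a (0.329) and Stac3 (-0.421). With the column of fractured pair-fed against fractured alcohol-fed turned, the alcohol effect of fractured rats reversed for Cacng1 (-0.306), Phkg1 (0.803), Srl (-0.0705) and Slc8a3 (0.245), and the interaction for Phkg1 (0.321) and Cacng1 (-0.257). These reversals follow from the turned columns.

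Counts of rows past the threshold moved more. The 999 rows of the fracture effect in alcohol-fed rats became 0 with the column of fractured pair-fed against unfractured alcohol-fed turned, 0 with that against fractured alcohol-fed turned, 0 with those against both unfractured groups turned, 440 with columns scaled to 1 spread and 2 without moderated variances. Leaving out 1 pairing at a time gave 0 to 918, with 0 without the pairing of fractured pair-fed and unfractured pair-fed, of fractured pair-fed and unfractured alcohol-fed, or of the alcohol-fed groups, and 655 without that of unfractured pair-fed and fractured alcohol-fed. In the alcohol effect of fractured rats 0 rows became 435 with the column of fractured pair-fed against unfractured alcohol-fed turned, 1213 with those against both unfractured groups turned and 4 without moderation. In alcohol and fracture against neither 0 rows became 14 and 5 under the same turns, 35 with scaled columns, 2 without moderation and 0 to 7 leaving out 1 pairing. Turning the columns against both unfractured groups gave 4 rows in the fracture effect of pair-fed rats and 82 in fracture alone against alcohol alone, and the interaction had 2 without moderation. The cause was not tested. No paired analysis was possible because no numbered sample served on more than 1 pairing and each pairing is 1 column.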
